A study of Mus musculus with 62 samples.

Results

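The regions described here are stretches of the mouse genome that carried histone 3 lysine 27 acetylation (H3K27ac) in quadriceps (Quad) and in none of 3 other skeletal muscles, the extensor digitorum longus (EDL), soleus (Sol) and diaphragm (Dia). They were chosen from the H3K27ac peak lists of the 4 muscles by merging all peaks that touched and keeping each merged region that held a Quad peak and no peak of EDL, Sol or Dia. Of 51588 merged regions, 6819 (13.2%) were Quad-alone regions, and each of these held 1 Quad peak. The Quad list held 40949 peaks in all, so 34130 Quad peaks lay in regions shared with at least 1 other muscle, and these are called shared Quad peaks below. All positions are those of the deposited lists, on mouse build mm10.

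The study compared chromatin marks between fast glycolytic and more oxidative muscles, and between quadriceps of mice whose muscles were remodelled by running or by a transgene. Every library came from mice of strain C57BL/6 by the labels. Per the methods, the purchased wild-type mice were C57BL/6J males of 7 to 8 weeks. The Quad, EDL, Sol and Dia groups were sedentary wild-type mice. A further set of quadriceps came from sedentary wild-type mice (Sed) and from wild-type mice with free access to a running wheel for 4 weeks (Ex), harvested 4 to 6 hours after the last bout. Another set came from males that overexpress the coactivator gene Pgc1a from the muscle creatine kinase promoter, and so in muscle fibers (mTg, labelled PGC1-tg), and from their sedentary wild-type littermates (Wt). Each group had 2 H3K27ac libraries. A quadriceps library was made from the muscle of 1 animal, whereas an EDL, Sol or Dia library pooled 3 animals, so the muscle and the number of animals per library cannot be told apart. The accessibility peaks came from ATAC sequencing of quadriceps in 3 control libraries, pooled into 1 list.

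H3K27ac marks active enhancers and promoters, and its pattern along the genome differs strongly between cell types. H3K4me2, dimethylation of lysine 4 of the same histone, marks enhancers and promoters whether or not they are active, and ATAC sequencing reads the open chromatin at which transcription factors bind. The quadriceps of the mouse is a large limb muscle made mostly of fast fibers with mixed oxidative capacity, the EDL a small and very fast muscle, the soleus a slow oxidative muscle, and the diaphragm a continuously active breathing muscle. Because a whole muscle was ground up, each library also held nuclei of vessels, connective tissue, nerve and immune cells.

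The Quad H3K27ac libraries held 24.2 M and 15.3 M tags, and those of EDL, Sol and Dia between 19.2 M and 21.6 M. Those of Sed and Ex held between 17.1 M and 23.7 M, and those of Wt and mTg between 11.7 M and 14.9 M. These depths are those in the headers of the lists, and a depth table of the study exchanges the values of the second Dia libraries of H3K27ac and H3K4me2. The Quad list was called against 2 input libraries, each other list against 1. With 40949 peaks the Quad list was the longest of the 4 muscles, beside 35750 in EDL, 34173 in Sol and 33106 in Dia. The Wt list was longer still, at 49010 peaks, and the Sed list held 34031. Nearest genes of a Quad peak included 31 of 36 fast fiber and sarcomere genes and all 24 calcium handling and excitation genes. They also included 18 of 18 endothelial and mural, 19 of 20 stroma and tendon and 10 of 11 satellite cell marker genes. Shares were lower for immune markers, at 9 of 18, adipocyte markers, at 8 of 15, and nerve and Schwann markers, at 8 of 12.

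The members also found in each of the Sed, Wt, Quad H3K4me2 and ATAC lists give a concrete view of these regions. Sequences are shown for the open-chromatin window of the 5 such members with the highest acetylation per kb whose window holds no annotated UTR, each 200 bp centered on the ATAC peak, read from the reference build GRCm38 (mm10) on the plus strand. Capitals mark any match to 4 short motifs on either strand: TGANTCA, bound by AP-1 factors; CAGCTG, an E-box bound by myogenic bHLH factors; AGGTCA, the core element of nuclear receptors; and GGAATG, bound by TEAD factors. A MEF2 site was searched as well. The first lies in intron 3 of Tfdp2, at chr9:96245303-96245502. The second lies in intergenic sequence at -66.1 kb from the start of Rora, at chr9:68587947-68588146. The third is intergenic, 129 kb from the start of Ppp1r3a, at chr6:14625969-14626168. The fourth lies in intron 2 of Atp10a, at chr7:58750015-58750214, and the fifth is intergenic, at -28.9 kb from the start of 5730403I07Rik, at chr9:77427764-77427963.
Tfdp2: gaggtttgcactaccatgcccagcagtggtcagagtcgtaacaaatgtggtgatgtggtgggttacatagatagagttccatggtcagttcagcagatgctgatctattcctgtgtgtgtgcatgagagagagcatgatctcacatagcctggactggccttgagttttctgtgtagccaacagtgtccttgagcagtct
Rora: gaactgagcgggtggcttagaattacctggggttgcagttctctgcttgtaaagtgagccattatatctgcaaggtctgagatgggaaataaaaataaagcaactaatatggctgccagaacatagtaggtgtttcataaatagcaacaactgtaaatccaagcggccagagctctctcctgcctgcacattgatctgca
Ppp1r3a: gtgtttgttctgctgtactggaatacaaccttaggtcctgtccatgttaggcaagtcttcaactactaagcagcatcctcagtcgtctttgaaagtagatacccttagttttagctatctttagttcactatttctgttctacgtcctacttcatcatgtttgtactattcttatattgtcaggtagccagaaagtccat
Atp10a: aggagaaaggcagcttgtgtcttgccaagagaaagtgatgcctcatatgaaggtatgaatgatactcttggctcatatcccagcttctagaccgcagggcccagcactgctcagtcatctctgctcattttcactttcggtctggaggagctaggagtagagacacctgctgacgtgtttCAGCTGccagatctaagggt
5730403I07Rik: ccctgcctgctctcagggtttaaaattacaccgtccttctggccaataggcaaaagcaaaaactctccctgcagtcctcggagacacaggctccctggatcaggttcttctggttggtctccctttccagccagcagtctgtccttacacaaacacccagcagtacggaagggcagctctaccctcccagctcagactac
Of these 5 windows, 1 held a match, the E-box that begins at base 181 of the Atp10a window. Their GC content ran from 39.0% at Ppp1r3a to 54.5% at 5730403I07Rik, and each held 1 to 3 CpG dinucleotides.

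A further 3 windows show the AP-1 motif. In percentage points, its share at open sites of Quad-alone regions differed most from that of all ATAC windows. They were chosen after the values were seen. The Prkch window lies in intron 11 of that gene at chr12:73725888-73726087, with the motif at base 166. The Hmox2 window lies inside the region that the list assigns to the promoter of this heme oxygenase gene, at chr16:4742257-4742456, with the motif at base 38. The Slx4ip window lies in intron 2 of that gene at chr2:136921060-136921259, with AP-1 at base 21 and an E-box at base 121.
Prkch: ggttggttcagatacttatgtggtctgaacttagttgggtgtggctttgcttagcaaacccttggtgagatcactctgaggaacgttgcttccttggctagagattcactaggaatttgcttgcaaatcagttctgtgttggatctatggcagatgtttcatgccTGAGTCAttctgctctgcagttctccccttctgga
Hmox2: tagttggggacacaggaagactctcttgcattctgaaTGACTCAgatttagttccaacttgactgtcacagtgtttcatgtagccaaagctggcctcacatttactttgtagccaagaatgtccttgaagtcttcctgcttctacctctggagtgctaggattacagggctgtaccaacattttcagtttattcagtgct
Slx4ip: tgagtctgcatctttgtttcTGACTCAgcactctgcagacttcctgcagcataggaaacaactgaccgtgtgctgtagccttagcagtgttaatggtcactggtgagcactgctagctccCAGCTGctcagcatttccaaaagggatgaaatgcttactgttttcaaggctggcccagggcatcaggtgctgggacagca
Each of these 3 members was also called in the Sed and Wt lists, in the Quad H3K4me2 list and in the ATAC list.

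Quad-alone regions were narrower and weaker than the rest of the Quad list. This is a description of the values from which they were selected, and no test applies. Their median width was 776 bp, beside 1794 bp for shared Quad peaks, and 1601 of them (23.5%) sat at the narrowest width of the list, against 5.0% of shared peaks. The level of a peak is given in the list as a normalized log2 value per library, and its median over members was 4.16, beside 6.81 for shared peaks. Per kb of region, the medians of the log2 level were 4.48 and 5.87. The 2 replicates were close, with medians over members of 4.11 and 4.23, and the medians of the 2 inputs over the same regions were 2.56 and 2.71.

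The peaks were called for enrichment over these inputs, so levels above input restate that choice. Both Quad libraries exceeded both inputs at 6818 of 6819 members. A margin of at least 1 log2 unit over both inputs was found at 4801 members (70.4%), against 93.7% of shared Quad peaks. The fold over input hardly separated the sets, with a median log2 value of 2.19 for members and 2.38 for shared peaks. The authors' adjusted p-value did, with medians of 0.0198 and 1.59e-06, and 575 members (8.43%) passed 0.001, against 73.1% of shared peaks. Members thus had about the fold of other Quad peaks at a lower level.

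Many Quad-alone regions lay close to acetylated chromatin of the other muscles. The median gap to the nearest EDL, Sol or Dia peak was 5352 bp. The gap was under 1 kb at 1125 members (16.5%) and under 5 kb at 3305 (48.5%), and it was 100 kb or more at 331 (4.85%). The members just inside the limit were 3 bp from another muscle's peak. They lay in introns of Fmnl2, which encodes a formin, of Tmem65 and of the noncoding gene Gm4265, with mean levels of 4.95, 4.04 and 3.16 log2. Just outside it, the Quad peaks at Sh3pxd2a and Gucy1a3 overlapped another muscle's peak by 2 and 4 bp, with mean levels of 3.50 and 3.05.

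The annotation of Quad-alone regions was distal. By the class given in the list, 107 members (1.57%, Wilson 95% interval 1.30 to 1.89) lay at a promoter, against 4464 shared Quad peaks (13.1%). Intergenic positions held 2801 members (41.1%), against 30.1% of shared peaks, and introns held 3595 (52.7%), against 49.3%. The median distance to the nearest transcription start was 32381 bp, beside 13905 bp for shared peaks. Intervals given here cover counting error only, since each list is 1 call over both libraries of its group and has no replicate.

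Recurrence in other sedentary wild-type quadriceps was the first independent measure, since neither the Sed nor the Wt list entered the choice of members. In the Sed list 1401 members were found again (20.5%, 19.6 to 21.5), and in the Wt list 2751 (40.3%, 39.2 to 41.5). Both lists held 868 members (12.7%), and 3284 (48.2%) were in at least 1. For shared Quad peaks the shares were 78.6% in Sed, 82.7% in Wt, 70.4% in both and 90.9% in at least 1. Most Quad-alone calls were thus not repeated in both of the other sedentary wild-type groups of the same muscle. With an adjusted p under 0.001 asked of all 4 muscle lists, the rule gave 3093 Quad-alone regions. Of these, 62.4% were in Sed, 75.4% in Wt and 49.9% in both. Only 575 of the 6819 members passed that threshold, so most of the 3093 were regions that another muscle shared in the full lists. Of the 575 regions found with the threshold on the Quad list alone, 53.2% were in Sed, 74.3% in Wt and 43.5% in both.

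The remaining marks gave the same order. The H3K4me2 list of Quad was called against the same inputs as the H3K27ac list of Quad, so it is not fully independent of the choice of members. H3K4me2 of Quad was present at 2303 members (33.8%, 32.7 to 34.9), against 70.1% of shared Quad peaks. An ATAC peak of control quadriceps was present at 1179 (17.3%, 16.4 to 18.2), against 65.2%. MED1, a subunit of the Mediator complex that gathers at strong enhancers, had a Quad peak at 18 members (0.264%), against 1523 shared peaks (4.46%). The MED1 list of Quad came from 1 library of pooled animals and held 3593 peaks, so few members could be found in it.

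Shares were higher with each further muscle that had the region. For Quad peaks found in 1, 2, 3 and 4 of the muscles, recurrence in Sed was 20.5%, 49.0%, 65.8% and 89.5%. Recurrence in Wt was 40.3%, 64.8%, 74.5% and 89.4%. The shares with H3K4me2 of Quad were 33.8%, 49.0%, 58.0% and 78.7%, and those with an ATAC peak 17.3%, 39.2%, 51.3% and 75.5%. Quad-alone regions were lowest in each of these 4 lists.

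**Figure D1:**
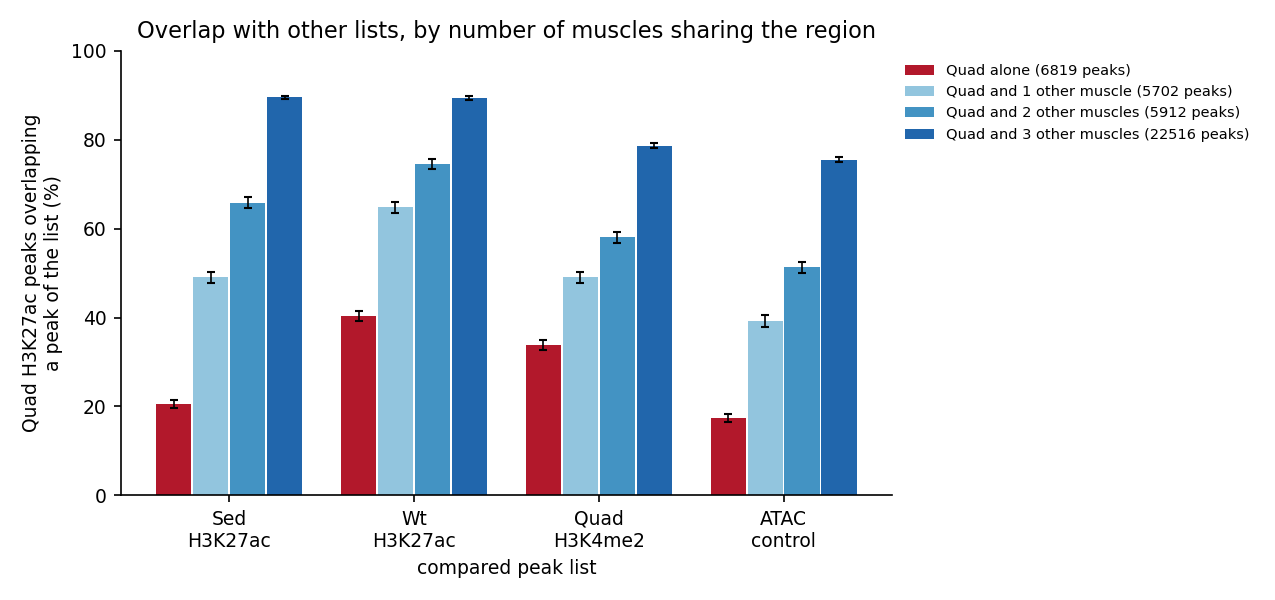
Share of Quad H3K27ac peaks (vertical axis, percent) that overlap a peak of the Sed H3K27ac, Wt H3K27ac, Quad H3K4me2 or ATAC control list, split by how many of the 4 muscles had the region. Bars are shares with Wilson 95% intervals for counting error, and the Quad-alone bars, from 17.3% for ATAC to 40.3% for Wt, are the lowest of each group.

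The difference between Quad-alone and shared peaks was smaller when peaks of like level were set side by side. All 40949 Quad peaks were sorted by level into 10 classes of equal size. The 3 lowest classes held 5698 members (83.6%), the 5 highest held 124 (1.82%), and the highest held none. In the lowest class, 9.04% of 2667 members recurred in Sed and 23.2% in Wt, against 22.9% and 37.0% of shared peaks. H3K4me2 of Quad was found at 22.8% against 26.1%, and an ATAC peak at 7.42% against 8.33%. For these 2 readouts, members and shared peaks of the lowest class were thus near each other.

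Among classes with at least 20 members, the gaps changed with level, and not in the same way for each list. For H3K4me2 and ATAC, members lay further below shared peaks in classes 4 to 6 (1 is lowest) than in classes 1 to 3. In class 4, 47.8% of members had H3K4me2 and 31.7% an ATAC peak, against 56.9% and 40.3% of shared peaks. For Wt the gap was widest in class 1 and was reversed in class 6. For Sed it had no steady order. In the fifth class, 52.1% of 282 members had H3K4me2 and 39.7% an ATAC peak, against 65.8% and 56.2% of shared peaks. Recurrence there was 58.2% in Sed and 75.9% in Wt, against 73.2% and 80.7%. In the sixth class, 56.4% of 94 members had H3K4me2 and 60.6% an ATAC peak, against 70.4% and 69.35% of shared peaks. There 93.6% of 94 members recurred in Wt, against 87% of shared peaks, and in no other class with at least 20 members did a member share exceed the shared one in any of these 4 lists. How far the width of a peak, which also sets its chance of an overlap, takes part in these shares was not tested. Median widths in the fifth class were 1740 bp for members and 1489 bp for shared peaks.

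**Figure D2:**
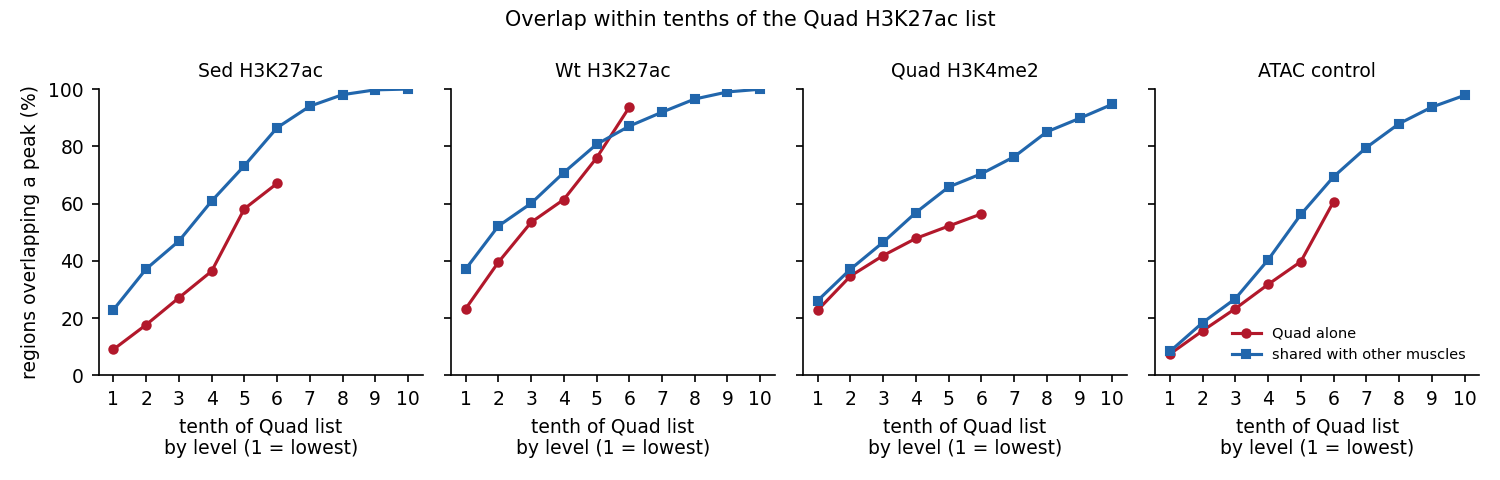
Share of Quad peaks (vertical axis, percent) overlapping a peak of each of 4 lists, across 10 equal classes of the Quad list by log2 level (horizontal axis, 1 is lowest), for Quad-alone and shared peaks. Classes with under 20 Quad-alone regions are not drawn for them; both lines climb with level, and Quad-alone regions lie below shared peaks except for Wt in class 6.

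The peaks that overlapped members were weak in their own lists too. Ranked by level within each list, the Sed peaks at members had a median percentile of 20.2, against 60.5 for those at shared Quad peaks. The corresponding medians were 33.4 and 68.8 in Wt, 30.3 and 65.6 in the Quad H3K4me2 list, and 25.9 and 65.1 in the ATAC list.

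H3K4me2 in the other muscles did not enter the choice of members, though each of these lists shared its input with the H3K27ac list of the same muscle. The H3K4me2 list of EDL covered 19.6% of members, that of Sol 14.5% and that of Dia 12.3%, against 69.2%, 60.4% and 55.8% of shared Quad peaks. At least 1 of these 3 muscles had H3K4me2 at 1669 members (24.5%). Of the 2303 members with H3K4me2 in Quad, 1326 (57.6%) had it elsewhere as well, and 977 (14.3% of all members) had it in Quad alone. All 4 muscles carried it at 534 members (7.83%), against 46.5% of shared peaks.

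Regions called in 1 muscle alone were then compared between muscles on the same quadriceps lists. EDL alone had 3144 regions, Sol alone 3158 and Dia alone 3255. EDL-alone regions recurred in the quadriceps lists more often than Quad-alone regions did, at 30.0% in Sed and 46.1% in Wt. Sol-alone regions recurred at 13.1% and 28.0%, and Dia-alone regions at 10.7% and 26.1%. An ATAC peak of quadriceps lay at 30.0% of EDL-alone regions, 16.0% of Sol-alone and 15% of Dia-alone regions, beside 17.3% of Quad-alone regions. On the whole lists, Quad-alone regions were not the set that the other quadriceps lists held most often. They were also the narrowest, with a median of 776 bp, beside 1029 bp for EDL, 960 bp for Sol and 1084 bp for Dia. Their median peak score was 13.4, beside 20.3 for EDL-alone regions. The part of width and score in these shares was not tested.

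The number of peaks in the lists moved with this order. When each muscle was given its 33106 highest-scoring peaks, the rule gave 2726 Quad-alone and 2426 EDL-alone regions. Their recurrence was then 35.3% and 38.1% in Sed, and 59.9% and 54.7% in Wt, so the order in Wt turned. With the Quad list alone held to an adjusted p under 0.001, the order turned in both, at 53.2% of Quad-alone and 34.6% of EDL-alone regions in Sed and 74.3% and 50.6% in Wt. With all 4 lists held to it, EDL-alone regions were again ahead, at 65.8% and 78.0%, against 62.4% and 75.4%. The share of regions at promoters was lowest for Quad, at 1.57%, and was 3.75% for EDL, 2.12% for Sol and 3.63% for Dia.

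**Figure D3:**
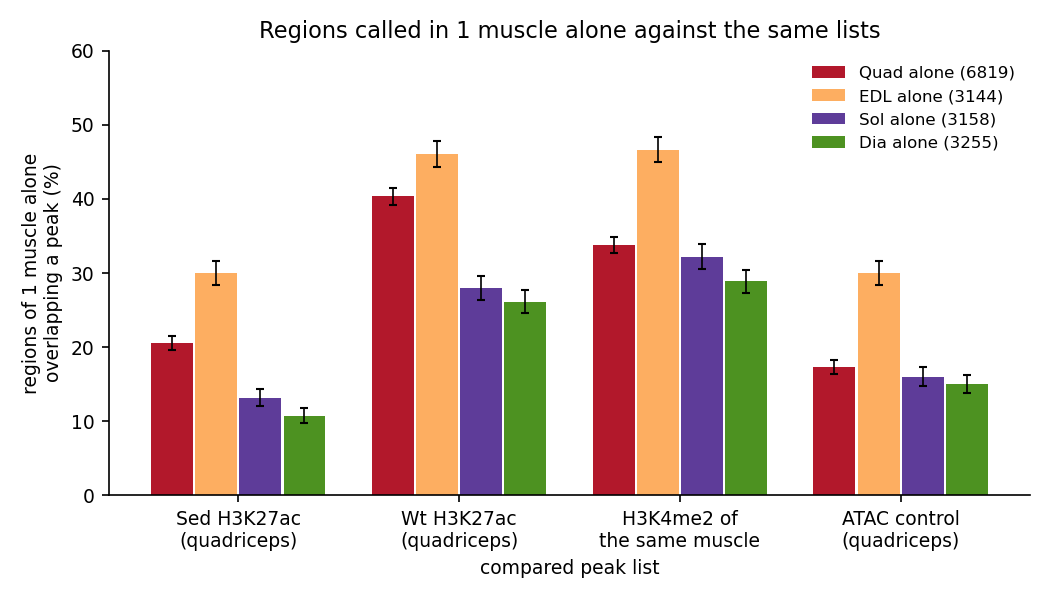
Share (vertical axis, percent) of regions called in 1 muscle alone that overlap a peak of the Sed or Wt quadriceps H3K27ac list, of the muscle's own H3K4me2 list, or of the quadriceps ATAC control list. Bars show Wilson 95% intervals for counting error; EDL-alone regions reach 46.1% in Wt and lie above Quad-alone regions in all 4 groups of bars.

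Few members were supported by every readout. Of the 4 lists Sed, Wt, Quad H3K4me2 and ATAC, 2304 members (33.8%) were in none, 2327 in 1, 1407 in 2, 631 in 3 and 150 (2.20%) in all 4. Among shared Quad peaks, 1517 (4.44%) were in none and 15664 (45.9%) in all 4. The 150 fully supported members had a median width of 1061 bp and a median level of 5.41 log2. Promoters held 13 of them, gene bodies 80 and intergenic sequence 57. H3K4me2 was present in another muscle at 75 of the 150, and in all 3 others at 43. The 150 regions had 147 different nearest genes.

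The 15 fully supported members with the highest acetylation per kb carried levels between 5.89 and 6.45 log2 per kb. The strongest lay in intron 3 of Tfdp2, the gene of a dimerization partner of E2F factors. Its log2 levels were 6.79 and 6.98 in Quad against 5.08 and 4.80 in the inputs. It was 5.55 and 5.35 in Sed and 7.26 and 6.98 in Wt, where it ranked at percentiles 15.7 and 77.7 of those lists. The region was thus weak in one sedentary group and strong in the other, on scales set separately for each list.

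The member upstream of Rora, which encodes a nuclear receptor of the circadian clock, had 6.47 and 6.59 log2 in Quad against inputs of 4.74 and 4.01. Its levels were 6.19 and 6.10 in Sed and 6.02 and 6.25 in Wt. The nearest peak of another muscle was 23962 bp away, and 1 other muscle carried H3K4me2 there. Rora was the nearest gene of other members too, in its first intron, one of which had 5.46 and 5.41 log2.

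The member near Ppp1r3a, the muscle glycogen-targeting subunit of protein phosphatase 1, had 6.59 and 7.05 log2 in Quad against inputs of 4.39 and 4.83. Sed had 6.63 and 5.95, and Wt 6.25 and 6.28. No other muscle had H3K4me2 at it, whereas Quad had 5.49 and 5.53 log2 of that mark. Its ATAC peak was weak, at percentile 15.9 of the ATAC list. A further member lay in exon 4 of Ppp1r3a itself, with 3.55 and 3.69 log2, and was in neither the Sed nor the Wt list.

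Other members of this set lay in genes of varied function. Atp10a, a phospholipid transporter gene, had 5.42 and 5.40 log2 against inputs of 4.08 and 3.64. Zfand3, a zinc finger gene, held the widest of the 15, with 3050 bp and 7.55 and 7.72 log2. Prkch, encoding a protein kinase C isoform, had 4.76 and 5.05 log2 and was 1 of 3 among the 15 that also were in the Ex list. Cpt1a, the liver isoform of the enzyme that admits fatty acids to mitochondria, had 5.36 and 5.76 log2, with 6.39 and 6.44 in Sed and 3.96 and 3.60 in Wt. The member at Cpt1a carried H3K4me2 in no other muscle.

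Slc35e3, encoding a solute carrier, had the only promoter among the 15, centered at -377 bp from its start, with 5.51 and 5.74 log2. Zc3h3, a zinc finger gene, and Orc2, a subunit gene of the origin recognition complex, had members in their first introns, 296 and 436 bp from the start. H3K4me2 was present in all 3 other muscles at these 3 regions near starts. For 3 members the nearest start by the list was not that of the gene they lay in: Arhgap15os stood for a region inside Arhgap15, 5031426D15Rik for one inside Celf2, and Mir7224 for one inside B3galt1. The member at 5031426D15Rik also showed the widest spread between replicates of the 15, at 7.14 and 6.29 log2.

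**Figure D4:**
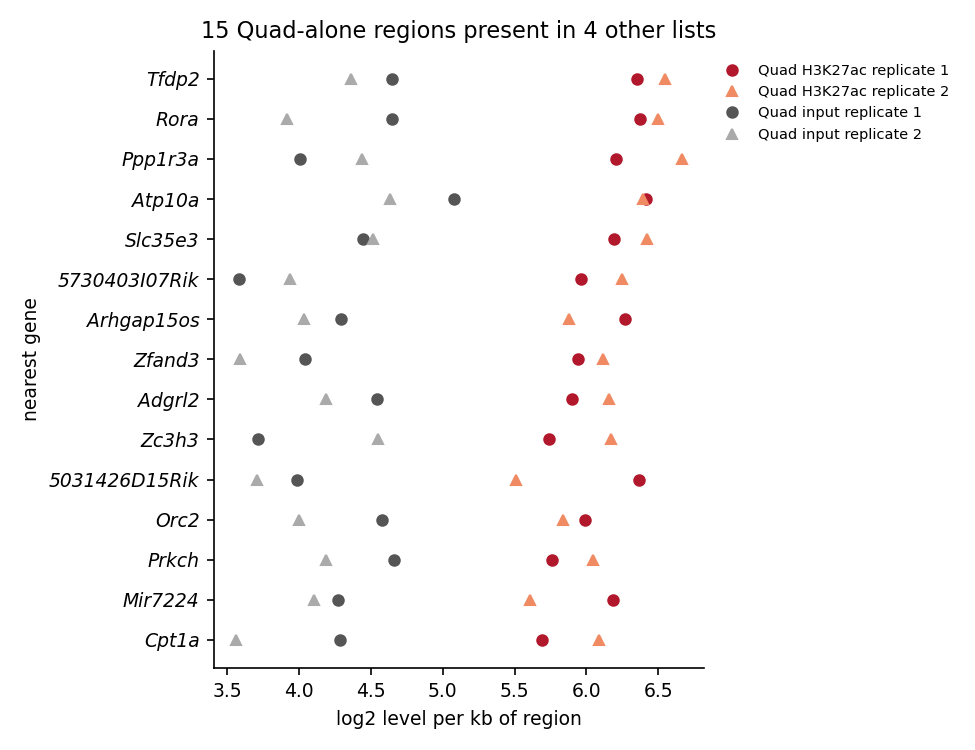
Log2 H3K27ac level per kb (horizontal axis) of the 15 Quad-alone regions with the highest level per kb among those also in the Sed, Wt, Quad H3K4me2 and ATAC lists, labelled by nearest gene. Points are single libraries, 2 of Quad H3K27ac and 2 of Quad input; both Quad points lie to the right of both input points at each region, as calling over these inputs favors.

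The members at promoters were mostly not particular to Quad by H3K4me2. Of 107 members at promoters, 82 had H3K4me2 in Quad and 72 had it in all of EDL, Sol and Dia. An ATAC peak lay at 43, and 20 recurred in both Sed and Wt. The 6 with the highest level per kb are named after their values were seen. Prc1, a regulator of cytokinesis, had 6.43 log2 per kb, Chaf1a, a chromatin assembly subunit, 6.38, and Rrm1, a subunit of ribonucleotide reductase, 6.35. They were followed by AV039307 at 6.31, Slc35e3 at 6.30 and Msh6, a mismatch repair gene, at 6.27. The Msh6 region was 40 bp from a peak of another muscle.

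Over all members, the strongest by level, and also by level per kb at 8.11 log2, was not a supported one. A 1337 bp region assigned to the pseudogene Pisd-ps1, inside Sfi1, had 8.36 and 8.71 log2 in Quad but also 6.35 and 6.65 in the inputs, and it was in none of the Sed, Wt, H3K4me2 and ATAC lists. The second by level, at Tbc1d10c, had 8.47 and 8.17 log2 against inputs of 5.29 and 5.28. It lay 322 bp from a peak of another muscle. The third was the 5475 bp region of Slx4ip whose ATAC window is shown above, with 8.21 and 8.29 log2 against 5.99 and 6.04. The Hmox2 promoter had 7.69 in both libraries against inputs of 5.37 and 5.39.

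Quad-alone regions were spread over many genes. They had 4243 different nearest genes, of which 2811 had 1 member. A shared Quad peak was also nearest to 3520 of these genes (83.0%), so most of these genes also had acetylation that another muscle shared.

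Some genes gathered several members, most of them with many Quad peaks in all. Dlc1, which encodes a GTPase-activating protein, had 11 members among 33 Quad peaks, over a span of 376 kb. Plpp3, a lipid phosphatase gene, and Usp24, a deubiquitinase gene, each had 10, among 33 and 25 Quad peaks. Slit3, the gene of a secreted guidance cue, had 9 of 12, Akap12, a kinase anchoring protein gene, 9 of 14, and Col3a1, a fibrillar collagen gene of connective tissue, 9 of 16. The long noncoding genes 4930591E09Rik and 1700085C21Rik had 10 of 14 and 9 of 13. Tns3, a focal adhesion gene, had 9 of 34, and Wwox, an oxidoreductase gene, had 8 of 23.

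Support at these clusters was uneven. At Col3a1, 3 of 9 members recurred in Wt, none in Sed, and none had an ATAC peak. At 1700085C21Rik, 4 of 9 recurred in Wt, 3 in Sed, and 5 had an ATAC peak. At 4930591E09Rik, 8 of 10 recurred in Wt and 2 in Sed.

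The genes of muscle programs did not stand above genes in general. Over all genes, members made up 16.7% of Quad peaks, and over the 9 lists of muscle and clock genes between 8.70% and 17.1%. For 36 fast fiber and sarcomere genes, 17 of 130 Quad peaks (13.1%) were members, at 13 genes. None of those 17 was in the Sed list and none had an ATAC peak, while 9 were in the Wt list. The strongest per kb lay 176 kb from Mylk4, a myosin kinase gene, with 5.61 and 5.63 log2 against inputs of 3.11 and 3.58. The next lay in intron 44 of Ttn, the giant sarcomere spring, with 3.82 and 4.61 log2, and was in none of the 4 lists.

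Calcium handling and excitation genes had members as 15 of 106 Quad peaks (14.2%). A member in intron 12 of Atp2a1, the calcium pump of fast fibers, had 4.28 and 4.30 log2 and recurred in Wt. A member at the end of Kcnj2, which encodes a potassium channel that sets the resting potential, had 5.63 and 5.12 log2 and recurred in Wt as well. Both had H3K4me2 in 2 of the other muscles.

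Glycogen and glycolysis genes had 13 of 90 (14.4%), oxidative metabolism genes 15 of 133 (11.3%). In the first list, the member with the highest level per kb was the one near Ppp1r3a described above. In the second list, a member at -14 kb from the start of Lpl, the lipoprotein lipase, had 7.04 and 7.30 log2 against inputs of 5.29 and 4.70. It was in the Sed, Wt and ATAC lists and carried no H3K4me2 peak in any of the 4 muscles' lists. The pair of members with the highest level per kb upstream of Cd36, a fatty acid transporter, had at most 4.84 log2 in a library and were in none of the 4 lists.

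Myogenic and fiber-type factors had 50 members among 294 Quad peaks (17%), at 19 of 38 genes. A member at -162 kb from the start of Mef2c, a factor that drives muscle gene programs, had 7.18 and 7.57 log2 against inputs of 5.41 and 5.42. It lay 123301 bp from the nearest peak of another muscle and had H3K4me2 and ATAC peaks, but was in neither the Sed nor the Wt list. A member in intron 2 of Eya4, a transcriptional coactivator of myogenesis, had 5.80 and 5.94 log2 and was in both.

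Limb and axial patterning genes, which keep positional identity in adult tissue, had 19 of 111 (17.1%). The highest per kb lay at -107 kb from Meox2, a homeobox gene of somites and limb muscle, with 4.74 and 5.09 log2, in the Wt and ATAC lists. A member in intron 7 of Tbx5, a forelimb factor, had 5.69 and 5.71 log2, was in both Sed and Wt, and lay 31135 bp from another muscle's peak. Growth and atrophy genes had 21 of 150 (14%), none of them in the Sed list, and neuromuscular junction genes 4 of 46 (8.70%), none in Sed or Wt.

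Clock genes had 12 of 89 (13.5%), and 11 of the 12 were in at least 1 of the 4 lists. Besides the Rora members, one in intron 1 of Per2, a core repressor of the clock, had 5.27 and 5.19 log2 and recurred in both Sed and Wt, 48 bp from a peak of another muscle. The hour of day at which muscles were taken is not given in the sources used here.

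Markers of other cell types held a larger share of members in some lists. For 20 stroma and tendon markers, 38 of 124 Quad peaks (30.6%) were members, at 13 genes. Col3a1 alone gave 9 of these members, among its 16 Quad peaks. Of these 38, 5 were in Sed, 14 in Wt, 13 had H3K4me2 and 4 an ATAC peak. Nerve and Schwann cell markers had 6 of 21 (28.6%), adipocyte markers 8 of 36 (22.2%) and immune markers 4 of 20 (20%). Endothelial and mural markers had 15 of 122 (12.3%) and satellite cell markers 4 of 40 (10%). Whether more cells of a type or more acetylation per cell gave these peaks cannot be told apart in whole muscle, and the part of such cells in the result was not tested.

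Levels of these members varied widely. In the stroma list, a member at -2.16 kb from the start of Postn, a matrix protein of fibroblasts, had 5.55 and 5.69 log2 and was in the Sed, H3K4me2 and ATAC lists. A member assigned to Fap, a fibroblast surface protease, lay inside the neighboring Ifih1, had 5.97 and 5.92 log2 and was in all 4 lists. A member in intron 7 of Pparg, the adipocyte regulator, had 5.14 and 5.01 log2. In the endothelial list a member in intron 3 of Erg, a vessel transcription factor, had 5.16 and 4.95 log2, and in the immune list one near Lyz2, a lysozyme gene of macrophages, had 4.71 and 4.53. A 3512 bp member at -60.9 kb from the start of Vcam1, present on satellite cells and inflamed vessels, had 7.34 and 7.09 log2 and recurred in Sed and Wt. The other 3 satellite cell members, nearest to Myf5, Hey1 and Cdh15, had between 3.27 and 3.99 log2 in a library. They lay 96.7, -69.3 and 65.5 kb from those starts, inside Lin7a, the noncoding gene C230057A21Rik and Ankrd11.

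The sequence of Quad-alone regions was poorer in GC and CpG. The central 200 bp had a median GC content of 46.5% at members and 49.5% at shared Quad peaks, with means of 2.50 and 5.72 CpG. Outside promoters the medians were 46.0% and 49.0%. More than 50% of the bases were repeat-masked at 264 members (3.87%), against 1.29% of shared peaks, while the medians were alike at 14.2% and 14.6%.

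At the open sites, the share of windows with a motif differed most for AP-1 when counted in percentage points. The 1193 ATAC windows in members held TGANTCA in 16.3% (14.3 to 18.5), against 9.93% of the 26465 windows in shared Quad peaks and 10.4% of all 44909 ATAC windows. With promoters left out the shares in members and shared peaks were 16.6% and 11.3%. CAGCTG was in 25.1% against 21.3% in shared peaks and 21.4% of all windows, AGGTCA in 19.3% against 16.6% and 16.3%, and GGAATG in 13.7% against 11.6% and 11.8%. The MEF2 site, the rarest, went the other way and was in 1.34%, against 2.71% and 2.08%. Outside promoters it was in 1.39% (0.858 to 2.25) of windows in members and 3.14% (2.92 to 3.38) of those in shared peaks, and these intervals did not overlap. Outside promoters the intervals of members and shared peaks overlapped for CAGCTG, at 25.6% and 23.2%, for AGGTCA, at 19.7% and 18.3%, and for GGAATG, at 14.1% and 12.5%. Matches describe the letters of these windows and not the binding of a factor. At the center of the acetylated regions themselves, whether open or not, AP-1 was in 7.99% of members and 6.32% of shared peaks, a smaller difference.

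Among 144 windows of fully supported members, 24 held AP-1, 38 the E-box, 26 AGGTCA, 14 the TEAD motif and none the MEF2 site. The windows are shorter than the regions around them, so motifs elsewhere in a region were not counted.

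Exercise and the transgene give a further view, since regions that differ between Ex and Sed (exercise-modified regions, EMRs) and between mTg and Wt (PGC1α-modified regions, PMRs) were deposited as lists. These lists hold regions already selected for a difference, so a test on them repeats the selection and is no independent evidence of change. limma also draws the variance of each region toward that of its list, so SE and p-values do not rest on that region alone. limma on the deposited log2 levels called 2274 of 2280 hypoacetylated EMRs (99.7%) at a Benjamini-Hochberg adjusted p under 0.05, 381 of 382 hyperacetylated EMRs (99.7%), all 1828 hyperacetylated PMRs (100%) and all 844 hypoacetylated PMRs (100%). At Quad-alone regions lay 110 hypoacetylated EMRs, 53 hyperacetylated EMRs, 78 hyperacetylated PMRs and 97 hypoacetylated PMRs, all of them called, which only matches the background. For EMRs the number called depended on single libraries, while the differences kept their direction and about their size. With 1 library left out, the median difference at the 110 lay between -0.71 and -0.54, and at the 53 between 0.47 and 0.71. Without Ex replicate 2, 35 of the 110 stayed called, beside 52.2% of the whole list, and without Ex replicate 1, 60 did, beside 81.6%. The EMR lists share the Sed and Ex libraries and the PMR lists the Wt and mTg libraries, so the lists of a pair are not independent.

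In total 331 members (4.85%) touched a differential region. As shares of the lists, members held 4.82% of hypoacetylated and 13.9% of hyperacetylated EMRs, and 4.27% of hyperacetylated and 11.5% of hypoacetylated PMRs. Of shared Quad peaks, 2068 (6.06%) touched a hypoacetylated EMR and 139 (0.407%) a hyperacetylated one, against 1.61% and 0.777% of members. For PMRs, 950 shared peaks (2.78%) touched a hyperacetylated region and 631 (1.85%) a hypoacetylated one, against 1.16% and 1.48% of members. Differential regions were often wider than the member they touched, and 25, 6, 16 and 11 of those at members, in the order above, also overlapped a peak of another muscle.

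The size of the differences at members was much like that of the whole lists. Median log2 differences of Ex minus Sed were -0.60 at members and -0.76 over all hypoacetylated EMRs, and 0.60 and 0.59 for hyperacetylated EMRs. For mTg minus Wt they were 0.73 and 0.74 for hyperacetylated PMRs and -0.54 and -0.63 for hypoacetylated PMRs. At none of the differential regions at members did the 2 groups overlap, as was so for 100% of each list.

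Among hypoacetylated EMRs at members, the one nearest Rps14, a ribosomal protein gene, fell from 8.60 and 8.24 log2 in Sed to 7.46 and 7.07 in Ex. Clec16a, a gene of mitophagy and autophagy, had 6.96 and 7.74 in Sed and 6.33 and 6.12 in Ex, a difference of -1.13 ± 0.21 (SE, n = 2 per group; limma adjusted p = 1.19e-05). Atp8a1, a phospholipid flippase gene, fell from 9.05 and 8.90 to 7.90 and 7.99, and the region at Gm10677 from 10.01 and 9.85 to 8.96 and 8.88. The region at -514 kb from Acvr2a, an activin and myostatin receptor gene, fell from 7.19 and 6.84 to 6.08 and 5.97. Those at Rps14, Atp8a1 and Gm10677 also overlapped another muscle's peak, whereas those at Clec16a and Acvr2a did not.

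Hyperacetylated EMRs at members were led by a region of the noncoding gene 1700084J12Rik, which rose from 5.72 and 5.91 log2 in Sed to 6.56 and 6.88 in Ex. Galnt15, a glycosyltransferase gene, had 7.77 and 8.02 in Sed and 8.5 and 8.98 in Ex, and Sorcs3, a sorting receptor gene, 5.10 and 5.38 and then 6.04 and 5.95. Pdcd1lg2, encoding an immune checkpoint ligand, had 6.38 and 6.35 in Sed against 6.76 and 7.46 in Ex, and Ripk4, a kinase gene, 5.29 and 5.34 against 5.69 and 6.43. In the last pair of genes the 2 Ex libraries stood further from each other than the nearer one stood from Sed. With Sed replicate 1 left out, 0 of the 53 and 0 of all 382 stayed under the threshold by limma, and 33 of the 53 had an unadjusted p under 0.05. With Sed replicate 2 left out, 33 of the 53 stayed, beside 53.7% of the list.

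Hyperacetylated PMRs gave the largest rises. Hrh2, the histamine H2 receptor gene, rose from 7.09 and 6.97 log2 in Wt to 8.39 and 8.60 in mTg, a difference of 1.47 ± 0.13 (SE, n = 2 per group; limma adjusted p = 8.12e-10), or 2.76-fold. The region of D930015E06Rik rose from 6.62 and 6.53 to 8.04 and 7.99, and that of Bmp6, a bone morphogenetic protein gene also known for iron regulation, from 6.15 and 6.25 to 7.28 and 7.63. Zc2hc1b rose from 4.95 and 5.25 to 6.38 and 6.21, and the region at -110 kb from Amot, an angiomotin gene of vessels and junctions, from 5.29 and 5.66 to 6.44 and 6.70. Of the 5, the region at D930015E06Rik overlapped another muscle's peak. Of the 79 members at such regions, 76 were in the mTg list, 29 in the Wt list and 15 in the Sed list.

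Hypoacetylated PMRs at members included Gm19299, which fell from 9.71 and 9.80 log2 in Wt to 8.31 and 8.27 in mTg, and Phkb, a subunit of the kinase that activates glycogen phosphorylase, which fell from 9.98 and 10.10 to 8.58 and 8.72. Both of these wide regions also overlapped another muscle's peak. Opa3, a mitochondrial protein gene, fell from 6.66 and 6.41 to 5.29 and 5.39, a difference of -1.19 ± 0.13 (SE, n = 2 per group; limma adjusted p = 2.55e-07). A pair of regions upstream of Acvr2a fell as well, from 6.07 and 6.18 to 5.01 and 5.19 and from 6.31 and 6.57 to 5.48 and 5.36, and neither overlapped a peak of another muscle.

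**Figure D5:**
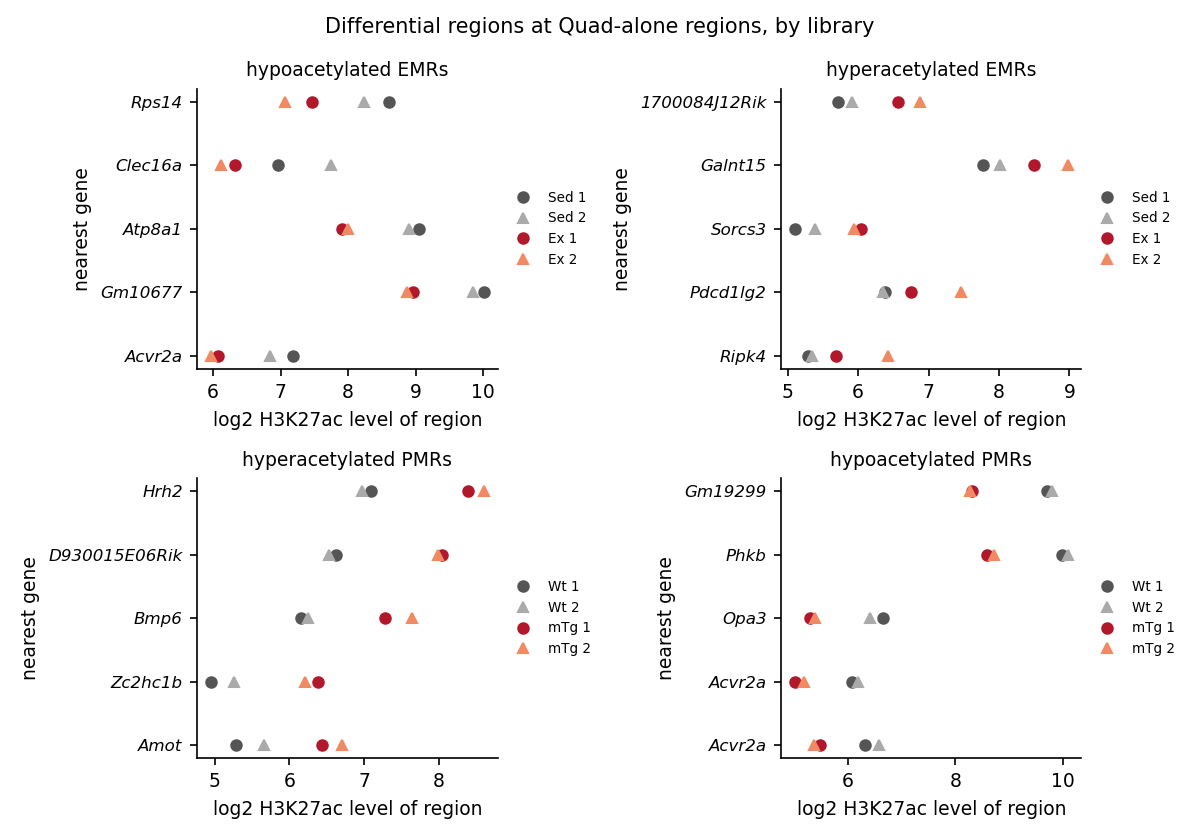
Log2 H3K27ac levels (horizontal axis) of the 5 regions with the largest difference at Quad-alone regions in each list of exercise-modified (Ex and Sed) and PGC1α-modified (mTg and Wt) regions, labelled by nearest gene. Points are single libraries, 2 per group. Control and treated libraries do not overlap at any of the regions, as the selection of the lists favors. Hrh2 moves from 7.09 and 6.97 in Wt to 8.39 and 8.60 in mTg.

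Both a hypoacetylated EMR and a hypoacetylated PMR touched 9 members. These are 8.18% of the 110 members at hypoacetylated EMRs and 8.91% of the 101 at hypoacetylated PMRs. They were nearest to Thoc7, Ube2d1, Gm2176, Ehf, Atp1b3, Plxna1 and Dna2, and a pair of them to Acvr2a. Of shared Quad peaks, 191 were in both lists, which is 9.24% and 30.3% of those at each. All 9 members were in both the Sed and the Wt lists and in neither the Ex nor the mTg list, as selection for lower acetylation favors. The wider member at Acvr2a, of 4521 bp, had 8.10 and 7.28 log2 in Quad against inputs of 5.81 and 5.72, and was also 1 of the 18 with a MED1 peak of Quad. No member was in both hyperacetylated lists.

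Members were also found in the peak lists of the remodelled muscles. In Ex 1758 members were found (25.8%), against 1401 in Sed, and 1215 were in Ex and not Sed while 858 were in Sed and not Ex. For shared Quad peaks the order was the other way, with 3174 (9.30%) in Ex alone of the pair and 5032 (14.7%) in Sed alone. In mTg 1198 members were found (17.6%), against 2751 in Wt. The mTg and Wt lists differ in length, at 36169 and 49010 peaks, and the part of list length in these shares was not tested. All of Sed, Ex, Wt and mTg held 131 members (1.92%), and none of them held 2660 (39.0%), against 4.54% of shared peaks.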

How the data were processed

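H3K27ac, H3K4me2, MED1 and ATAC peak lists of mouse muscle, and the 4 lists of differential H3K27ac regions, were used as deposited. The authors aligned reads to mm10 with Bowtie or Bowtie2, kept 1 tag per position in HOMER, and called histone peaks over both libraries of a group against input with DESeq2 at 2-fold and an FDR of 0.05. The deposited log2 levels per library were normalized by the authors within each list, so levels were not tested between lists. The authors' log2 fold over input, adjusted p-value, peak score and ATAC signal (normalized tags in the pooled peak) served for description. Columns of the authors' own comparisons, NFAT lists, footprints and lists on another build were not used.

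Peaks of the 4 muscles were merged at an overlap of 1 bp, and any overlap of 1 bp counted as recurrence. Intervals are Wilson 95% and cover counting error only. Regions are not replicates, so no test was run on shares. Differential lists were fitted with limma 3.58.1 (two-sided, Benjamini-Hochberg over each list, 2 libraries per group), after a check on simulated data. SE and p-values rest on a moderated variance, in which the spread between the libraries of a region is drawn toward that of its whole list. They are thus not measures of the libraries of that region alone. Named members were the 15 with the highest level per kb among those in all 4 lists, the 10 genes with most members, the 5 largest differences per differential list, up to 4 per gene list, and the 3 nearest the limit on each side; others are said to be chosen after their values were seen. Some members that this rule names are not reported here. Members and gene lists were chosen with earlier results of these data known.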

Additional observations from a re-analysis of the deposited data

How the results depend on the processing

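With an adjusted p under 0.001 in all 4 muscle lists, the rule gave 3093 Quad-alone regions, most of them shared with another muscle in the full lists. Of these, 62.4% were in Sed, 75.4% in Wt and 49.9% in both, while 58.7% had H3K4me2, 50.1% had ATAC and 4.36% were at promoters. With that threshold on the Quad list alone, 575 of the 6819 members were left, with 53.2%, 74.3%, 43.5%, 54.1%, 40.7% and 1.91% in the same order. At 4-fold over input in all lists the shares were 23.5%, 42.0%, 15.3%, 35.4%, 18.8% and 1.93% of 6166 regions. With equal numbers of peaks, 2726 regions gave 35.3%, 59.9%, 25.8%, 45.8%, 29.9% and 2.13%. Without regions under 1 kb from another muscle's peak, Sed gave 19.5% and ATAC 19.3%. An overlap of at least 50% gave 18.1% in Sed, 34.0% in Wt, 9.97% in both and 13.3% with ATAC. With the compared list held to an adjusted p under 0.001, Sed gave 3.59%, Wt 4.25%, both 0.983% and H3K4me2 12.9%, and the ATAC peaks of the upper 50% by score gave 2.87%. In these alternatives fewer or stronger peaks entered by construction, and Quad-alone shares of Sed, Wt, H3K4me2 and ATAC stayed below those of shared Quad regions wherever the muscle lists were changed. Peak lists are 1 call over both replicates and could not be recomputed without 1 of them.

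Leaving out 1 library at a time, between 35 and 106 hypoacetylated EMRs at members stayed called (35 without Ex replicate 2, 60 without Ex replicate 1, where 52.2% and 81.6% of the whole list stayed), between 0 and 53 hyperacetylated EMRs, between 76 and 78 hyperacetylated PMRs and between 93 and 96 hypoacetylated PMRs. The 0 arose without Sed replicate 1, where 0 of all 382 stayed and limma gave 33 at an unadjusted p under 0.05; without Sed replicate 2, 33 stayed called. The lone library was assumed to vary like the other group. A replicate block left all counts as they were, at 110, 53, 78 and 97, and crossing the pairs for hypoacetylated PMRs, an alternative chosen after seeing the data, gave 97. Same-numbered libraries correlated in their deviations at 0.106, 0.144, -0.0386 and -0.242 in the order above. No label says what the number marks, and these values cannot decide whether same-numbered libraries share a litter or day.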
